A study of Canis lupus familiaris with 8 samples.

Results

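The miR-18 and miR-19 families were examined in the serum of 8 Doberman Pinschers through every name on the array that stands for miR-18a, miR-18b, miR-19a or miR-19b, with canine (cfa) and murine (mmu) listings kept apart and star strands left out. These were 7 of 1224 miRNA names, and 6 of them were among the 438 names with at least 1 feature that was well above background on 2 or more arrays of a group. The detected listings were cfa-miR-18a, mmu-miR-18a, cfa-miR-18b, cfa-miR-19a, cfa-miR-19b and mmu-miR-19b, and the listing that was not detected was mmu-miR-18b. The values of the 6 detected listings were correlated over the dogs, with a Pearson r from 0.741 to 0.995 between 2 listings. None of the 6 passed the limits for a difference between diseased and healthy dogs in the 3 sets of arrays compared. The 2 listings of miR-19b differed far more from each other than the groups did.

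miR-18 and miR-19 are made from the miR-17-92 cluster, a single primary transcript that is cut into several mature miRNAs, and from a related cluster on the X chromosome. The cluster is driven by MYC and E2F and is known for its part in cell proliferation and in the development of heart and lung. miR-18a and miR-19 repress CTGF and thrombospondin-1, 2 matrix proteins whose rise in the ageing heart goes with fibrosis. In the RefSeq gene table of the dog, the genes MIR17, MIR18A, MIR19A, MIR20A, MIR19B-1 and MIR92A-1 follow each other in that order, and MIR363, MIR92A-2, MIR19B-2, MIR20B, MIR18B and MIR106A do so in the second cluster. The mature product of MIR19B-1 and that of MIR19B-2 are the same, so the array cannot assign miR-19b to either gene. miR-18a and miR-18b, and likewise miR-19a and miR-19b, are near-identical, and how far the probes of one also bound the other was not tested.

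The study asked whether circulating miRNAs differ between dogs with dilated cardiomyopathy (DCM), a disease of the heart muscle with a widened and weakly contracting left ventricle, and healthy dogs of the same breed. All were client-owned and, per the labels, 7 to 11 years old, although the clinical table of the paper lists the dog named DoCM8 as younger. The DCM group (n = 4, arrays labelled DoCM5 to DoCM8) was under treatment with ACE inhibitors and pimobendan, together with sotalol or amiodarone, and the control group (n = 4, Con1 to Con4) had no sign of heart disease. Disease and therapy cannot be told apart here, and serum holds RNA released by many tissues, in which more releasing cells and more RNA per cell cannot be told apart. RNA was taken from serum after at least 20 min of clotting and hybridized to 8 one-colour arrays on 1 slide, 1 array per dog.

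Each array carried 48960 features for miRNAs, of which 10817 to 14000 were well above background by the scanner software, and none was saturated. Slide row and group cannot be told apart, because the 4 DCM arrays shared a row and the 4 control arrays shared the other one. The array labelled DoCM5 stood apart, with a median Pearson correlation of 0.924 with the other arrays over the 438 detected names, against 0.957 to 0.968 for the others. The paper left out the array named DoCM8 as inconsistent, and comparisons were therefore made over the 7 arrays without DoCM8, and are given beside those over all 8 arrays and over 7 arrays without DoCM5 in its place. The numbers in the labels may not match those of the paper, since the array labelled DoCM8 had the highest median correlation of the 8, so that the 7 arrays without DoCM8 may not be the set the paper used. The array that the paper left out may be the one labelled DoCM5, and the 7 arrays without DoCM5 may then be the paper's set. Precision is limited by the few arrays per group.

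Detection separated the listings. Both listings of miR-18a, cfa-miR-19a and mmu-miR-19b were above background in all 40 of their features on all 8 arrays. cfa-miR-19b was above background in 40 of 40 features on 5 arrays, and in 29 on DoCM6, 28 on DoCM7 and 26 on Con2. cfa-miR-18b was much closer to the background, with 21, 13, 1 and 18 features above it on DoCM5 to DoCM8 and 17, 0, 20 and 15 on Con1 to Con4. Only 20 of its 40 features passed the filter of 2 arrays in a group. On DoCM7 and Con2 these averaged 3.74 and 3.54, below the lowest signals called well above background there (6.51 and 6.92).

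The murine listing of miR-18b gave no usable signal. Of its 40 features, 1 was well above background on DoCM5 and 0 on each of the other 7 arrays. Its mean signal over all features lay between -0.41 and 0.28 on the 8 arrays, whereas the lowest signal called well above background lay between 6.21 and 8.11. miR-18b was therefore followed through the canine listing alone, and what was not detected there is the signal of the murine probes, not the miRNA.

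**Figure D1:**
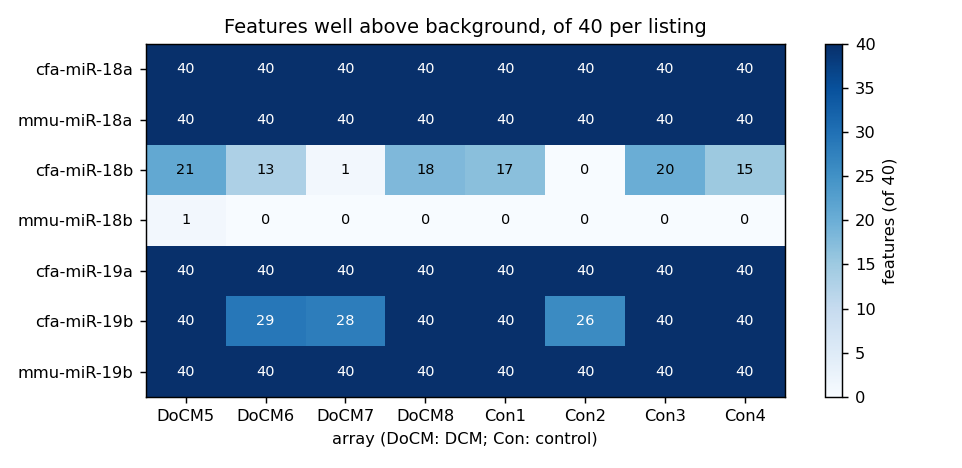
Number of features well above background, of 40 per listing, for the 7 listings (rows) on the 8 arrays (columns); darker cells stand for more features. The listings cfa-miR-18a, mmu-miR-18a, cfa-miR-19a and mmu-miR-19b hold 40 in every cell, cfa-miR-19b drops to 26 on Con2, and mmu-miR-18b holds 1 on DoCM5 and 0 elsewhere.

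Each detected listing was printed as 2 probe designs of 20 features, which are given here as the brighter and the dimmer probe. A probe's signal also depends on how well it binds, so that these ratios describe the probes and not the abundance of the miRNA. For cfa-miR-19a the brighter probe gave 1.29-fold the signal of the dimmer one over the 8 arrays, and for mmu-miR-19b 1.99-fold. The corresponding folds were 1.60 for mmu-miR-18a and 3.75 for cfa-miR-18a.

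The probes of cfa-miR-19b lay further apart, by 38.9-fold on the 5 arrays on which all 20 features of the dimmer probe were above background. Its brighter probe ranged from 228.6 on Con2 to 1939 on DoCM5, while its dimmer probe ranged from 5.78 on DoCM6 to 47.8 on DoCM5, so that the dimmer probe reached down to the background on DoCM6, DoCM7 and Con2. The dimmer probe of cfa-miR-18b had a mean signal of at most 1.57 on an array and was not kept. Repeated features of the brighter probe of a listing varied little, with a median coefficient of variation of 3.7% to 5.8% on an array, except for cfa-miR-18b with 17.0%. The value for cfa-miR-18b leaves out DoCM7 and Con2, where it was not computed because the mean signal was low (3.74 and 3.54).

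**Figure D2:**
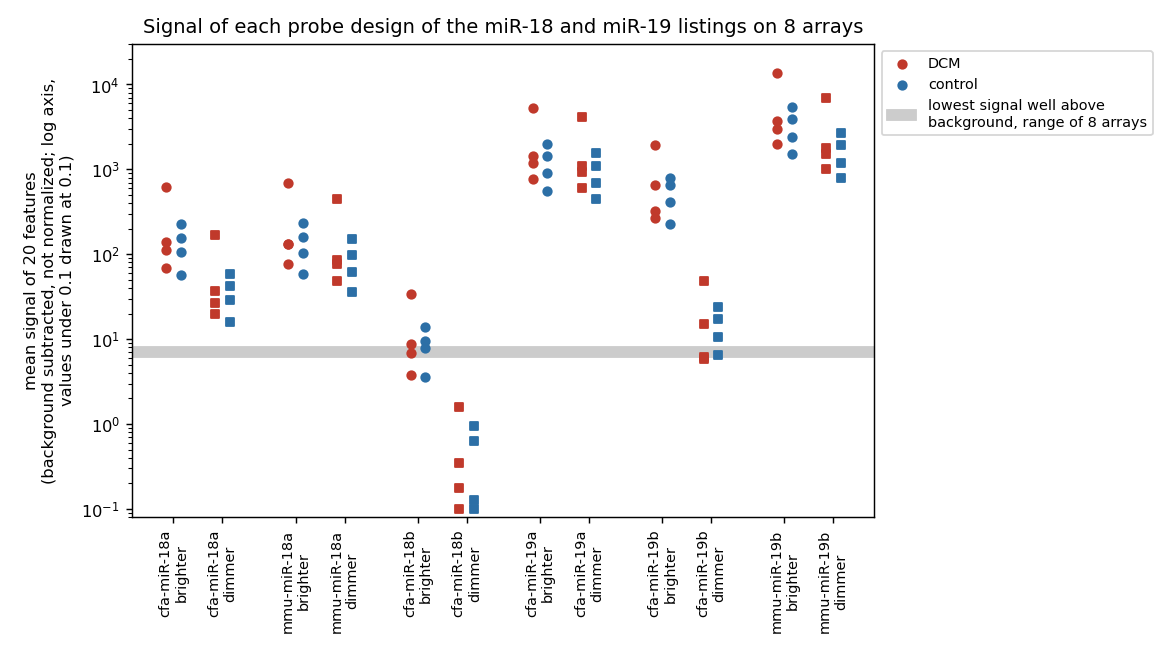
Mean background-subtracted signal of 20 features, not normalized, on a log axis for the brighter (circles) and dimmer (squares) probe of each detected listing on 4 DCM and 4 control arrays; signals under 0.1 are drawn at 0.1. The grey band marks the lowest signal called well above background (6.21 to 8.11): the dimmer probe of cfa-miR-19b reaches it and that of cfa-miR-18b lies below it, and the highest point in each column is DoCM5.

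For the comparison of dogs, the kept features of a listing were averaged and this mean was normalized between arrays to glog2 values. On this scale a difference of 1 is a 2-fold difference for bright names, and near the background it is no longer a plain log2 ratio.

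cfa-miR-18a had values of 7.33, 5.93, 6.06 and 6.60 on DoCM5 to DoCM8 and of 6.19, 5.55, 6.41 and 6.50 on Con1 to Con4. The murine listing of the same miRNA had 7.84, 6.58, 6.60 and 6.79 in the DCM group and 6.61, 5.95, 6.88 and 6.73 in the control group. In both listings DoCM5 was highest and Con2 lowest, and the other 6 dogs lay between them with the groups mixed.

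miR-18b, the product of the X-linked cluster, had values of 3.96, 2.41, 2.15 and 3.01 in the DCM group and of 2.59, 1.68, 2.90 and 3.07 in the control group in its canine listing. The same dogs stood at both ends as for miR-18a, although the value of Con2 at the low end was not above background.

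cfa-miR-19a, from the first cluster, had values of 10.88, 9.88, 10.05 and 10.40 on DoCM5 to DoCM8 and of 9.94, 9.41, 10.10 and 10.05 on Con1 to Con4. mmu-miR-19b showed almost the same order, with 11.98, 10.98, 11.18 and 11.54 in the DCM group and 11.15, 10.61, 11.31 and 11.18 in the control group. For both, DoCM5 and DoCM8 lay above every control dog, while DoCM6 and DoCM7 lay among them.

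cfa-miR-19b had values of 8.62, 7.15, 7.56 and 8.53 in the DCM group and of 8.06, 7.29, 8.00 and 8.12 in the control group. Here DoCM5 and DoCM8 lay above all controls again, but DoCM6 gave the lowest value of all and DoCM7 lay below 3 of the 4 controls. The groups overlapped in all 6 detected listings over the 7 arrays without DoCM8, over all 8 arrays and over the 7 without DoCM5, in which 4.34%, 2.74% and 8.45% of all names had groups that did not overlap. Con2 was the lowest control in 6 of 6, although its value of cfa-miR-18b was not above background. Within groups the SD of the glog2 values over the 8 arrays was 0.38 for mmu-miR-19b, 0.39 for cfa-miR-19a, 0.51 for mmu-miR-18a, 0.54 for cfa-miR-18a, 0.58 for cfa-miR-19b and 0.72 for cfa-miR-18b, against a median of 0.48 over the 438 detected names.

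**Figure D3:**
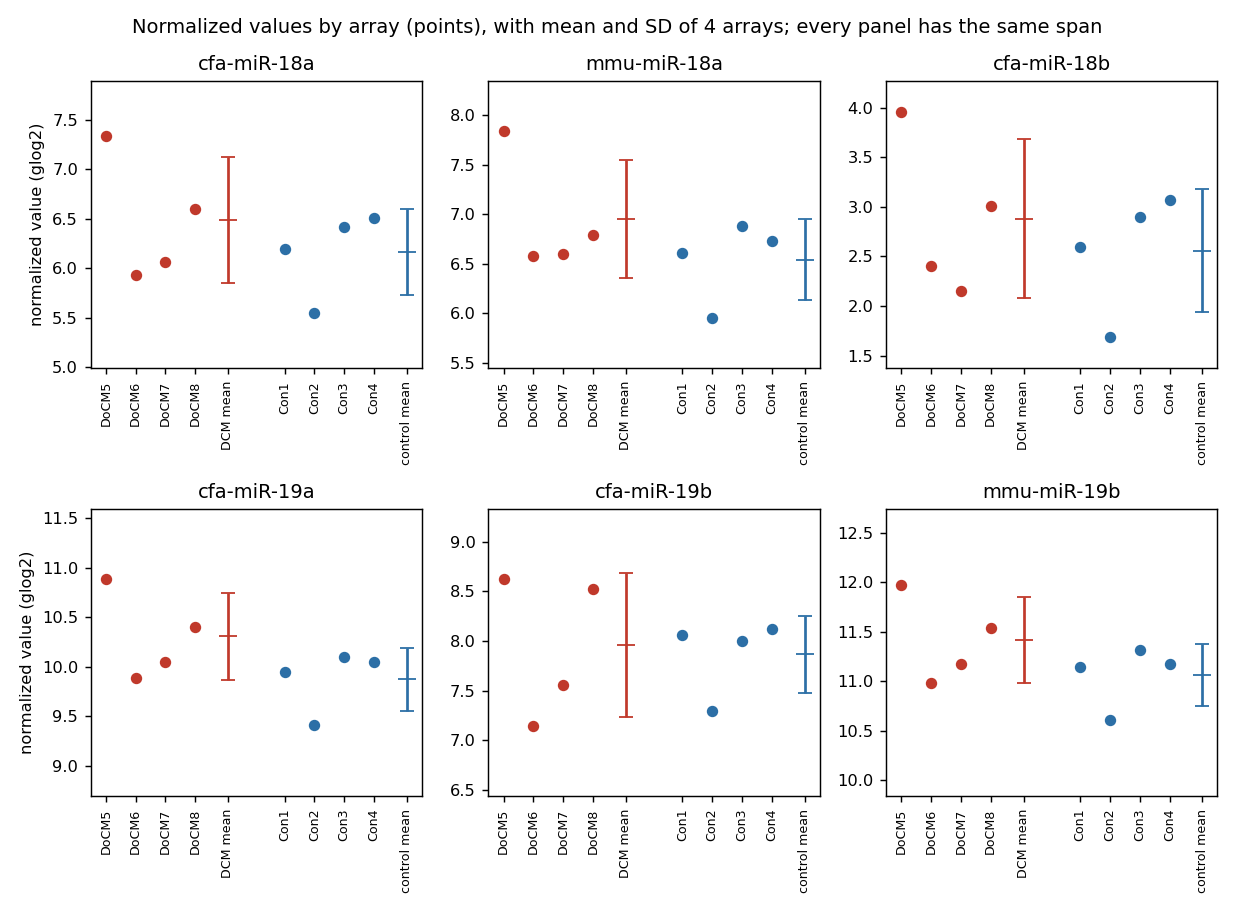
Normalized glog2 values of the 6 detected listings on each array (points), with mean and SD of the 4 DCM and 4 control arrays (bars); each panel has its own level but the same span. DoCM5 is the highest point in every panel and Con2 the lowest in all but cfa-miR-19b, where DoCM6 is lower (7.15 against 7.29).

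In none of the 3 sets of arrays did a miR-18 or miR-19 listing pass the test for a difference between DCM and healthy dogs. Over the 7 arrays without DoCM8, 0 of the 6 detected listings met both limits, a fold change over 1.5 and an unadjusted limma p under 0.05, where 12 of all 438 names (2.74%) did, 6 higher and 6 lower. No name passed after adjustment over the 438 (12 had an unadjusted p under 0.05). By sign alone 5 of the 6 listings were higher in DCM, against 49.8% of all names, with a median log2 fold change of 0.29 against -0.0032 over all names. The listings were correlated over the dogs and are not independent. For cfa-miR-18a, mmu-miR-18a, cfa-miR-18b and mmu-miR-19b only 1 of the 3 DCM arrays, DoCM5, lay above the control median. For cfa-miR-19a 2 of the 3 did.

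The miR-18 listings had small and imprecise differences. cfa-miR-18a averaged 6.45 ± 0.77 (SD, n = 3) in DCM and 6.18 ± 0.43 (n = 4) in controls, a log2 fold change of 0.26 (SE 0.42; limma p = 0.54, exact permutation p = 0.629). For mmu-miR-18a the log2 fold change was 0.45 (SE 0.41; limma p = 0.293, exact permutation p = 0.514), the largest of the 6. For cfa-miR-18b the difference of the means was 0.29 on this scale (SE 0.49; limma p = 0.571, exact permutation p = 0.657), and its 95% interval, from 0.577-fold to 2.59-fold, was the widest.

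Among the miR-19 listings, cfa-miR-19a averaged 10.28 ± 0.54 (SD, n = 3) in DCM and 9.90 ± 0.31 (n = 4) in controls, a log2 fold change of 0.38 (SE 0.36; limma p = 0.315, exact permutation p = 0.457). mmu-miR-19b had 0.30 (SE 0.36; limma p = 0.424, exact permutation p = 0.457). cfa-miR-19b was the single listing with a lower mean in DCM, 7.78 ± 0.76 against 7.89 ± 0.38, a log2 fold change of -0.11 (SE 0.41; limma p = 0.797, exact permutation p = 0.8). The adjusted p of limma over all 438 names was 0.997 for each of the 6. The 95% intervals of all 6 held both 1-fold and 1.5-fold, so that a change of that size was not excluded by these arrays.

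The choice of arrays moved these values more than it moved the calls. Over all 8 arrays 6 of 6 listings had a higher mean in DCM (50% of all names), with a median log2 fold change of 0.34 and 0 of 6 past the limits (17 of 438 names, 3.88%, and 4.11% by the p alone). With DoCM5 left out in place of DoCM8, 4 of 6 were higher (49.3% of all names), the median fell to 0.073, and again 0 of 6 passed (19 of 438 names, 4.34%, and 6.85% by the p alone). The log2 fold change of cfa-miR-18a was then 0.034, that of mmu-miR-18a 0.11, that of cfa-miR-18b -0.044, that of cfa-miR-19a 0.24, that of mmu-miR-19b 0.17 and that of cfa-miR-19b -0.12. The higher means in DCM were larger in the sets that held DoCM5, the array with the highest value in all 6 listings.

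**Figure D4:**
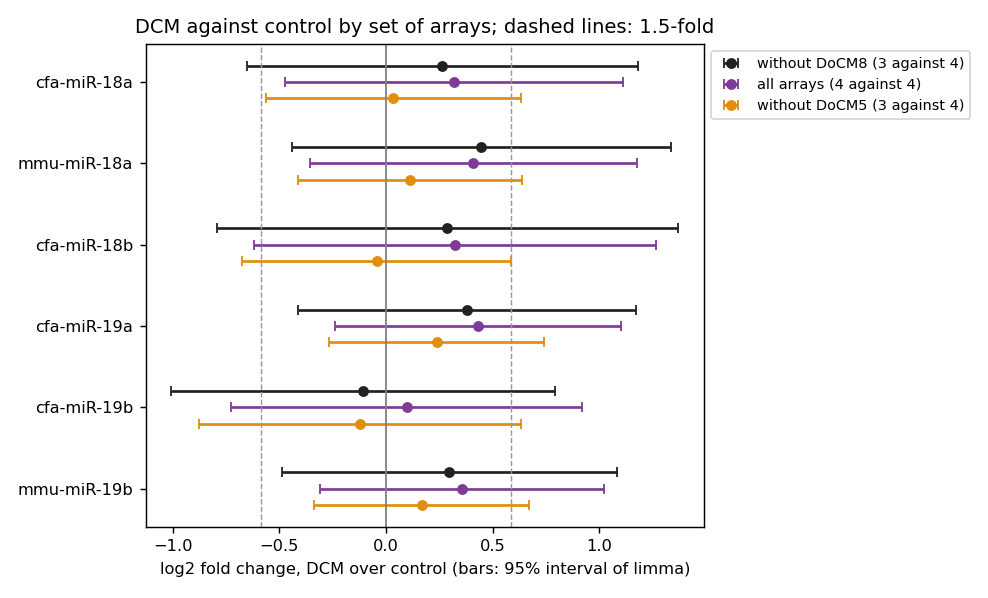
Log2 fold change of DCM over control with the 95% interval of limma for the 6 detected listings, over 7 arrays without DoCM8 (black), all 8 arrays (purple) and 7 arrays without DoCM5 (orange). Every interval crosses 0, and without DoCM5 the estimates lie between -0.12 and 0.24.

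Fitting the 2 probe designs of each listing apart gave the same picture. Over the 7 arrays without DoCM8, 0 of 11 probes passed the limits, against 21 of 867 probes of all names (2.42%), and 10 of the 11 had a higher mean in DCM, against 49.1% of all probes. The pairs of probes gave log2 fold changes of 0.30 and 0.29 for cfa-miR-18a, of 0.53 and 0.46 for mmu-miR-18a, of 0.43 and 0.41 for cfa-miR-19a and of 0.35 and 0.32 for mmu-miR-19b, the dimmer probe first. The probes of cfa-miR-19b were less alike, with -0.20 for the dimmer and 0.015 for the brighter one. The dimmer probe was the one that reached the background on DoCM6, DoCM7 and Con2. Without DoCM5, 0 of 11 probes passed (4.38% of all probes) and 7 of the 11 were higher in DCM (51.4% of all probes), with 0.11 and 0.099 for mmu-miR-18a and -0.0084 and 0.027 for cfa-miR-18a.

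miR-18a and miR-19b are each listed for dog and mouse, which allowed a comparison of 2 readings of one miRNA on the same array. The canine reading of miR-18a minus the murine one was -0.50, -0.65, -0.53 and -0.19 on DoCM5 to DoCM8 and -0.42, -0.41, -0.46 and -0.23 on Con1 to Con4. The murine listing read higher on 8 of 8 arrays. Over the 7 arrays the difference was -0.46 ± 0.13 (SD, n = 7), with an exact two-sided sign-flip permutation p of 0.0156, the smallest that 7 arrays allow, and 0.0176 after adjustment over the 35 miRNAs detected in both listings.

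For miR-19b the 2 readings lay much further apart, with -3.35, -3.83, -3.62 and -3.01 in the DCM group and -3.09, -3.32, -3.32 and -3.06 in the control group. The mean over the 7 arrays was -3.37 ± 0.28 (SD, n = 7), a 10.3-fold higher reading of the murine listing (exact sign-flip permutation p = 0.0156, adjusted 0.0176). A difference in level between listings was the rule on this array, since 33 of the 35 pairs (94.3%) passed the same test, with a median absolute difference of 1.02. It is a difference between probes and says nothing on the abundance of the miRNA.

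The gap of miR-18a was smaller between the brighter probes. When the brighter probe of each listing was taken alone, without normalization, the murine reading of miR-18a was 1.06-fold the canine one over the 7 arrays, and the sign of the difference varied between arrays. For miR-19b the brighter murine probe still read 6.88-fold higher than the brighter canine probe. The canine minus murine difference of the brighter probes lay between -0.21 and 0.11 on the 8 arrays for miR-18a, and between -3.20 and -2.49 for miR-19b.

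The 2 listings were also compared in their difference between DCM and control. For miR-19b the log2 fold change of the canine listing was 0.41 below that of the murine one over the 7 arrays without DoCM8. The canine minus murine readings of DCM (-3.83 to -3.35) and control dogs (-3.32 to -3.06) did not overlap. The exact two-sided permutation p was 0.0286, the smallest this design allows, and 0.333 after adjustment over the 35 pairs, of which 4 (11.4%) did not overlap. For miR-18a the listings differed by 0.18 in the same direction (exact permutation p = 0.0571, adjusted 0.5). In the brighter probes alone the listing difference between DCM and control was -0.17 for miR-18a and -0.31 for miR-19b, each with an exact permutation p of 0.0286, adjusted 0.333 over the 35 pairs, of which 5 (14.3%) did not overlap in this reading.

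No p of these differences lay below 0.05 when DoCM8 was included, the brighter probes included (exact permutation p = 0.314 and 0.286; 2 of 35 pairs not overlapping, 5.71%). Over all 8 arrays the listing difference of miR-19b was -0.26 (exact permutation p = 0.314; 1 of 35 pairs not overlapping, 2.86%) and that of miR-18a -0.090 (exact permutation p = 0.4). Without DoCM5 they were -0.29 (exact permutation p = 0.314) and -0.078 (exact permutation p = 0.571). DoCM8 gave the reading nearest to 0 of the 8 arrays for both miRNAs.

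**Figure D5:**
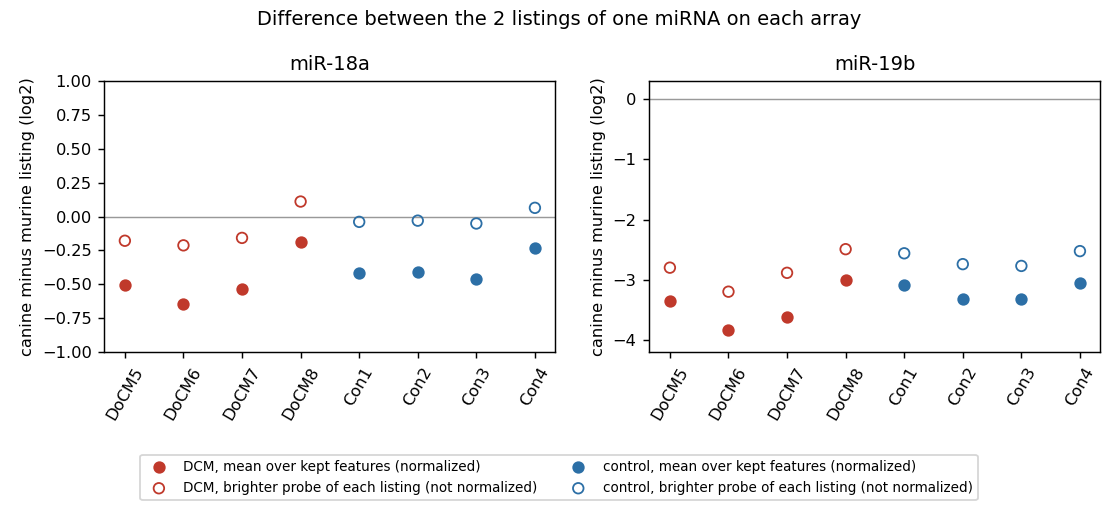
Canine minus murine reading (log2) of miR-18a (left) and miR-19b (right) on each array, as the normalized mean over kept features (filled) and as the unnormalized brighter probe of each listing (open); the panels have different scales and the grey line marks 0. All filled points lie below 0, down to -0.65 for miR-18a and -3.83 for miR-19b, while the open points of miR-18a lie on both sides of 0.

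Across the 8 arrays the 6 listings followed each other. Pearson correlations of the glog2 values ranged from 0.741, between cfa-miR-19b and mmu-miR-18a, to 0.995, between cfa-miR-19a and mmu-miR-19b, and without DoCM5 from 0.648 to 0.988. The 2 listings of miR-18a correlated with 0.958 and those of miR-19b with 0.857, so that mmu-miR-19b was closer to cfa-miR-19a than to the canine listing of its own name. These are descriptions over 8 arrays that share their array effects and their normalization.

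Other names outside the clusters correlated with these listings. The names most like cfa-miR-18a were cfa-miR-301a (Pearson r = 0.969, 8 arrays), mmu-miR-350 (0.967) and cfa-miR-16 (0.956), and those most like cfa-miR-18b were mmu-miR-350 (0.975), cfa-miR-16 (0.956) and cfa-miR-107 (0.95). mmu-miR-18a was closest to cfa-miR-148b (0.983), mmu-miR-350 (0.982) and cfa-miR-350 (0.98). Thus miR-350 was among the nearest names of 3 of the 6 listings.

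The miR-19 listings had partly other neighbours. cfa-miR-19a was closest to mmu-miR-32 (0.951), mmu-let-7i (0.948) and cfa-miR-107 (0.946), and mmu-miR-19b to cfa-miR-551b (0.961), cfa-miR-107 (0.944) and mmu-let-7i (0.941). For cfa-miR-19b the nearest names were mmu-miR-30e (0.929), cfa-miR-16 (0.92) and cfa-miR-500 (0.913), at lower correlations than for the other 5 listings.

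The other products of the miR-17-92 and miR-106a-363 clusters were looked at for comparison, together with those of the miR-106b-25 cluster, as 27 listings. The miR-106b-25 cluster holds MIR106B, MIR93 and MIR25 and no gene of miR-18 or miR-19. Of the 27 listings, 15 were detected, and the 12 others were cfa-miR-363 and 11 murine listings of star strands or of the 5p arm of miR-363. A star strand is the passenger strand of the hairpin and is usually degraded. In the fit of limma 0 of 15 passed the limits over the 7 arrays (2.74% of all names) and over all 8 arrays (3.88%). Their median log2 fold change was 0.16 over the 7 arrays and 0.10 over all 8, and 11 and 10 of the 15 were higher in DCM (49.8% and 50% of all names). Without DoCM5 the median turned to -0.16 and 6 of the 15 were higher (49.3% of all names).

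Along the first cluster, cfa-miR-17, which shares its seed with miR-20a and miR-106a and represses cell cycle inhibitors, had a log2 fold change of 0.70 over the 7 arrays (exact permutation p = 0.286). Only 20 of the 40 features of cfa-miR-17 were kept. Its values on Con2 (2.08) and Con4 (2.73) lay near the background, so that this is not a plain log2 ratio. cfa-miR-20a had 0.45 (exact permutation p = 0.371). miR-92a, encoded at the end of the transcript and known to restrain the growth of vessels, lay on the other side of 0, with -0.28 in the canine (exact permutation p = 0.486) and -0.21 in the murine listing (exact permutation p = 0.543). Without DoCM5 these values were -0.53 and -0.45, each with an exact permutation p of 0.0571 and with an unadjusted limma p of 0.0362 and 0.0493. miR-92a is also encoded in the second cluster, as MIR92A-2, so that the array cannot assign it to either transcript, and no difference between these names was tested.

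In the X-linked cluster, cfa-miR-106a had a log2 fold change of 0.31 (exact permutation p = 0.543) and mmu-miR-363-3p of 0.32 (exact permutation p = 0.371). miR-20b differed between its listings, with 0.068 in the canine and 0.49 in the murine one (exact permutation p = 0.886 and 0.257). Only 20 of the 40 features of cfa-miR-20b were kept. Without DoCM5 the values of cfa-miR-106a and cfa-miR-20b were -0.0050 and -0.26. In that set 1 of the 15 companions passed the unadjusted limits, where 4.34% of all names did. This was mmu-miR-18a*, the passenger strand of miR-18a, which was lower in DCM with a log2 fold change of -0.64 (limma p = 0.0137, adjusted 0.546, exact permutation p = 0.0571). Its value over the 7 arrays without DoCM8 was -0.25 (exact permutation p = 0.657). Only 20 of the 40 features of mmu-miR-18a* were kept.

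miRNAs of blood cells, heart and liver were read beside the families. DoCM5, highest in all 6 listings, had the lowest summed level of 4 of 4 detected erythrocyte names, 16.58 on a log2 scale, where the other DCM arrays reached 17.17 and the controls ranged from 16.77 to 17.08. It had the highest summed level of the 2 names of miR-126, a miRNA of platelets and endothelium, at 9.68, against 8.30 to 8.76 in the controls. The erythrocyte sum was mostly cfa-miR-451, with 16.36 on DoCM5, whereas cfa-miR-16 was highest on that array of all 8 (13.66) and cfa-miR-144 (8.41) and mmu-miR-144 (9.36) lay above every control there. The part of these levels in the results was not tested.

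The summed leukocyte level and the liver name were below every control on DoCM5. The 7 of 7 detected leukocyte names ranged from 12.10 to 13.18 in DCM and from 12.69 to 13.15 in controls, with 12.28 on DoCM5. This sum was mostly miR-223, while mmu-miR-142-3p (8.20) and mmu-miR-142-5p (7.07) were highest on DoCM5 of all 8 arrays. The liver miRNA miR-122 ranged from 4.80, on DoCM5, to 7.25 in the DCM group and from 5.20 to 7.57 in controls. Of 8 names of heart and skeletal muscle 5 were detected, with 6.85 to 7.37 in DCM and 6.73 to 8.54 in controls. The 5 were cfa-miR-499, cfa-miR-1, cfa-miR-133b, cfa-miR-206 and mmu-miR-208a-5p. All 40 features of cfa-miR-499 were kept, and its log2 fold change was 0.59 over the 7 arrays without DoCM8 (exact permutation p = 0.2). The others had 0.44, -0.43, 0.038 and -1.20 in that order. cfa-miR-133a and the heart-defining cfa-miR-208a and cfa-miR-208b were not detected.

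Of the 19 detected marker listings, 3 passed both limits of the limma fit over the 7 arrays (2.74% of all names), each with an adjusted p of 0.997. The leukocyte name mmu-miR-142-3p was higher in DCM by 1.21 on the log2 scale (exact permutation p = 0.0286) and the erythrocyte name mmu-miR-144 by 0.79 (exact permutation p = 0.0571), and both also passed over all 8 arrays and without DoCM5. The canine listing cfa-miR-144 passed over all 8 arrays alone, with 0.76 (limma p = 0.0417, adjusted 0.961, exact permutation p = 0.0571). The murine heart name mmu-miR-208a-5p had a log2 fold change of -1.20 (exact permutation p = 0.0286). It passed in neither of the other 2 sets, with -0.84 over all 8 arrays and -0.56 without DoCM5. The listings cfa-miR-208a and cfa-miR-208b had 0 kept features, and whether this murine name reads a heart miRNA in dog serum was not tested. The part of the marker listings in the values of miR-18 and miR-19 was not tested.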

How the data were processed

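Per the labels, serum RNA was labelled with Cy3, and the authors deposited the Agilent Feature Extraction 10.7.3.1 output of 8 arrays. The signal is an intensity per feature, background-subtracted in the deposited files and not normalized between arrays. Groups came from the labels, and nothing states technical replicates. After the filter and normalization of the paper's methods, features well above background on 2 or more of the 4 arrays of either group were kept (13423 features), and the mean per miRNA name was normalized with the vsn model (least trimmed squares quantile 0.9, 5 slices, 7 iterations; own implementation). Averaging both probe designs of a name and leaving out outlier-flagged features were choices made here. Tests used limma 3.58.1 in R 4.3.3 at p under 0.05 with a fold change over 1.5, Benjamini-Hochberg adjustment over all 438 names, and exact two-sided permutation tests. Scripts were tested on simulated data. Members, lists and named genes (the detected members, up to 6 cluster companions in gene order, and the 3 most correlated names of each member) were chosen with earlier results of these data known. The value table deposited by the authors holds the same intensity values. Probe and miRNA sequences were not used here. Normexp was run on the median signal. Fits of the probe designs apart, of the brighter probe alone and of all 8 arrays with the slide column as a block were added after seeing the data. Python 3.11.15, numpy 2.4.6, pandas 2.3.3, scipy 1.17.1 and matplotlib 3.10.9 were used.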

Additional observations from a re-analysis of the deposited data

Results flagged for a closer look

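Among 16 groups of 4 arrays examined for a single distant sample, 1 stood out, where chance flags about 1 in 20 groups. It was cfa-miR-19b in the control group, in which Con2 had a glog2 value of 7.29 and the other 3 controls lay between 8.00 and 8.12. Con2 was also the control with the fewest features of this listing above background, 26 of 40. The gap of DoCM5 to the other DCM arrays in mmu-miR-18a lay just below the limit. In all 6 detected listings Con2 was the lowest control, for cfa-miR-18b with a value not above background. Whether this belongs to the dog or to the array was not tested.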

How the results depend on the processing

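No paired analysis was possible because DCM and control dogs have no replicate number in common (5 to 8 against 1 to 4). The slide column, which holds a DCM and a control array each, was tried as a block in its place. The count of 12 names past the limits was 19 without DoCM5, 23 with scaling to the 75th percentile of detected names (2 higher and 21 lower, against 6 and 6, and 1 past the adjusted limit), 2 with normexp on the median signal and quantile normalization together, 43 of 1224 names without a filter on dim features, 6 of 349 names when at least 50% of the features had to be kept, and 10 to 30 with 1 of the 7 arrays left out (29 without DoCM5 and 30 without DoCM6). The count of 0 companions became 1 without DoCM5 and 1 over all 8 arrays with the slide column as a block, and 0 to 2 with single arrays left out (2 without DoCM5). With single arrays left out the log2 fold change ran from -0.16 to 0.55 for cfa-miR-18a (lowest without DoCM5), from -0.22 to 0.70 for cfa-miR-18b (which was -0.044 with DoCM5 left out in place of DoCM8) and from -0.51 to 0.24 for cfa-miR-19b (highest without DoCM6). cfa-miR-19b also turned to 0.096 over all 8 arrays, with or without the slide column as a block, to 0.28 with scaling to the 75th percentile of all names, to 0.13 without the filter and to 0.015 in its brighter probe. For cfa-miR-19a, mmu-miR-18a and mmu-miR-19b the direction held and no alternative passed the limits. With DoCM5 also left out of the 7 arrays their values fell from 0.38, 0.45 and 0.30 to 0.096, 0.049 and 0.020. Taking the median of the features and not their mean gave 0.93 for cfa-miR-18a and -3.19 for cfa-miR-19b (limma p = 0.0159, past both limits), a listing difference of -0.66 for miR-18a (exact permutation p = 0.0625), and listing differences between DCM and control of 0.40 for miR-18a and -3.73 for miR-19b, since it falls between 2 probe designs of 20 features with unequal signal. The listing difference of miR-18a between DCM and control was -0.19 with flagged features kept (exact permutation p = 0.0286) and -0.21 to -0.13 with single arrays left out. That of miR-19b was -0.26 over all 8 arrays, -0.29 without DoCM5, -0.55 with quantile normalization and -0.53 to -0.29 with single arrays left out, where 6 arrays cannot reach 0.05.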
